A study of Mus musculus with 2 samples.

Results

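This report describes 10 interferon-stimulated genes that encode antiviral effectors, Ifit1, Ifit2, Ifit3, Isg15, Usp18, Rsad2, Rtp4, Bst2, Ifi44 and Ifitm3, chosen by name from the 13769 genes measured on the arrays. The choice was made with earlier results of these data known. Every spot that is not a control and carries one of these gene names was used, which gave 11 probes on 20 spots: Isg15 has 2 probes, Ifitm3 has 1 probe printed in 10 places, and each other gene has 1 probe in 1 place. The series holds 1 array of Lamtor1 knockdown cells and 1 array of control cells, both of RAW264.7, a mouse macrophage-like line. The labels describe the knockdown as infection with a purchased lentivirus that carries a mix of 2 short hairpin RNA vectors against Lamtor1, followed by limiting dilution. They attach the same wording to the control, so the sources used here do not say what the control cells received or whether either population grew from 1 cell. Lamtor1 anchors Ragulator, the scaffold that brings the kinase complex mTORC1 to the lysosome, and the series asks how the transcription factor TFEB acts without it.

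Type I interferon binds a receptor on the cell surface and, through the kinases JAK1 and TYK2, activates transcription factors, among them STAT2 and IRF9, that bind a DNA motif called the interferon-stimulated response element (ISRE). The genes described here are classical targets of this route. Their products act at different points of a viral life cycle, by binding viral RNA, tagging proteins with ISG15, altering membranes through which viruses enter or leave, or depleting building blocks of viral RNA. Macrophages keep a low tonic activity of the pathway and raise it when they sense infection.

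A level is the log2 of the scanner's processed intensity after division by its array's 75th percentile. A difference is the knockdown level minus the control level. With 1 array per group no difference has a replicate check and no test was possible, so that every value describes these 2 arrays only. The error given is the scanner's own estimate for each spot and covers the measurement on the array, not cultures or labelling. Of 43020 spots, 52.9% on the knockdown array and 53.3% on the control array were well above background by the scanner's flag, and no spot was saturated. The targeted gene bore out the labels: Lamtor1 had a level of -0.43 on the knockdown array and 4.10 on the control array, so that the knockdown signal was 4.34% of the control signal. All 7 macrophage markers were above background on both arrays, among them Cd68 (level 3.73 in the knockdown and 2.50 in the control), Csf1r (6.65 in the knockdown and 7.47 in the control) and Adgre1 (0.97 in the knockdown and 2.53 in the control). None of the 3 B cell and none of the 3 epithelial markers was above background on either array, and of the 4 T cell markers Cd3e and Cd4 were, each at a difference below 0.1 in size. Among 5 osteoclast markers Ctsk was higher in the knockdown by 4.26 on the log2 scale, Ocstamp and Dcstamp had differences of -2.28 and -1.46, Acp5 was 0.57 higher, and Calcr was above background in the control only, at a bound of -0.91. Of the dendritic cell markers 2 of 4, and of the fibroblast markers 1 of 3, were above background, all within 2-fold. Whether these shifts have a part in the values below was not tested. In bulk RNA, fewer cells that express a gene and less RNA per cell cannot be told apart.

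The sequences just upstream of the members' start sites are shown first, since the ISRE is what these genes are known to share. RefSeq promoter windows of the GRCm38.p6 build, from 250 bases before to 50 bases after the annotated start, were available for 8 of the 10 genes in 9 windows; Usp18 and Rtp4 had no entry. The ISRE core was searched as GAAA, any 2 bases and GAAA again, on both strands, and overlapping matches were kept. It was present in windows of 6 of the 8 genes (Ifit1, Ifit3, Isg15, Rsad2, Bst2 and Ifitm3), beside 3.44% of all 32851 promoter windows. The stretches that hold the matches of 5 genes are printed here on the strand of the gene, 5′ to 3′, with the matches in capitals.
Ifit1, chr19:34640765-34640833, plus strand: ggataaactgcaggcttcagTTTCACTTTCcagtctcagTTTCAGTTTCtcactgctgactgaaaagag
Ifit3, chr19:34583353-34583436, plus strand: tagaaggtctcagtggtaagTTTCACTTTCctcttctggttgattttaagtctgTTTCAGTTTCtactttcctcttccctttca
Isg15, chr4:156200855-156200916, minus strand: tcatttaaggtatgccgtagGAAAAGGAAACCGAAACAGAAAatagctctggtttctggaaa
Rsad2, chr12:26456543-26456592, minus strand: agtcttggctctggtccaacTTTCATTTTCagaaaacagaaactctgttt
Bst2, chr8:71537567-71537622, minus strand: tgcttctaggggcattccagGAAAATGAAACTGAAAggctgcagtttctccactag

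The Isg15 stretch carries 3 overlapping matches that begin 78, 72 and 66 bases before the annotated start, and the Bst2 stretch 2 overlapping matches at 130 and 124 bases before it. Ifit1 and Ifit3 each carry 2 separate matches in the reverse orientation, the pair beginning 104 and 85 bases before the start in Ifit1 and 156 and 122 bases before it in Ifit3. In both genes the matches have the same letters, TTTCACTTTC and TTTCAGTTTC. Rsad2 has 1 match, 120 bases before the start. In Ifitm3 the 2 matches lie at bases 3 and 20 after the annotated start and are not printed. Neither window of Ifit2, nor the window of Ifi44, held these letters. The GAS element, a motif of the response to interferon gamma, was searched as TTCNNNGAA, where N is any base, and was found in windows of 3 of the 8 genes (Ifit2, Bst2 and Ifitm3), beside 8.3% of all windows. A match is a description of sequence, and binding was not measured.

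Every member was lower on the knockdown array. Because the members were chosen with earlier results of these data known, the shares of all genes given here are a background and not a test. The 10 genes, taken by their brightest probe, had log2 differences of -0.71 to -6.47 with a median of -2.26, a 4.79-fold lower level, beside a median of -0.05 over all measured genes. With normexp background correction, an alternative processing with an offset of 50, the members' median was -1.32. The offset is added to every signal, which shrinks the differences of dim probes most. Of the 10 genes, 9 were at least 2-fold lower, where 8.35% of all measured genes were, and none was at least 2-fold higher. Of the 10, 5 were at least 4-fold lower, where 3.6% of all genes were, and Rtp4 and Ifi44 were at least 8-fold lower, where 1.61% of all genes were. A bound sets a dim signal at its array's lowest signal well above background, or at its own value where that is higher. It leaves out the scanner's error. It is not a strict limit, since a probe above that lowest signal can also fall short of the scanner's flag. Counted by bound, 9 of the 10 were at least 2-fold lower (6.87% of all genes) and 5 at least 4-fold lower (2.16% of all genes). A share of 54.3% of all measured genes had a difference below 0. All 10 were well above background on the control array and 8 were on the knockdown array. With normexp 6 of the 10 were at least 2-fold lower, where 4.45% of all genes were, and the 3 Ifit genes were not among them.

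**Figure D1:**
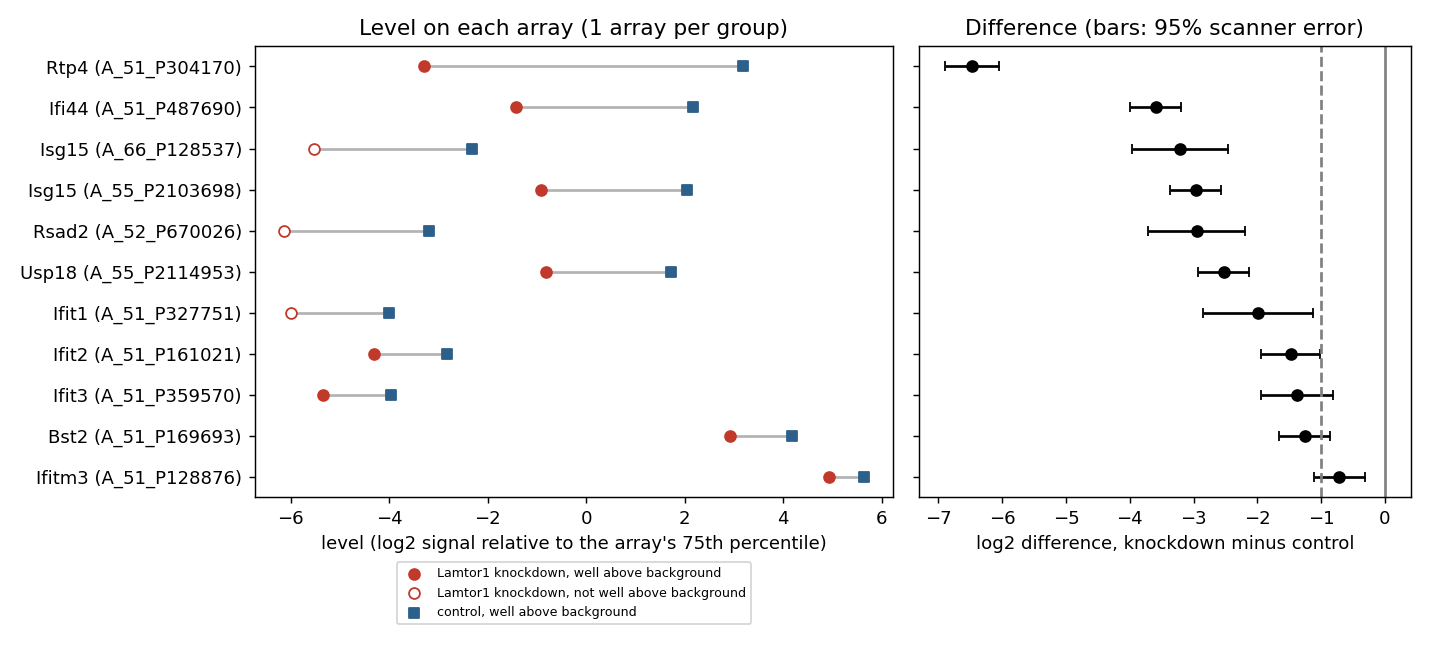
Left, level of each of the 11 probes on the Lamtor1 knockdown array (circles, open where not well above background) and on the control array (squares), as log2 signal relative to the array's 75th percentile. Right, the log2 difference with bars for the 95% interval of the scanner's error; all 11 differences lie below 0 and 10 lie below -1, marked by the dashed line.

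Isg15 encodes a ubiquitin-like protein that is joined to newly made proteins during an interferon response and is also secreted. The brighter Isg15 probe, at chr4:155573649-155573708 on the minus strand of the mm9 build to which the files refer, had a processed intensity of 665 ± 66.7 in the knockdown and 4844 ± 484 in the control (± scanner error). Its log2 difference was -2.96 (95% interval of the scanner error -3.36 to -2.56), a 7.80-fold lower signal. The other Isg15 probe had 27.1 ± 6.66 in the knockdown, where it was not well above background, and 234 ± 24.1 in the control. Its measured signal was 9.26-fold lower in the knockdown, which its bound equals (95% interval of the scanner error on the log2 difference -3.96 to -2.46). Its position in the files covers only 20 bases (chr4:155573533-155573552), although the probe is 60 bases long. With normexp the brighter probe was 7.14-fold lower and the other 3.13-fold. Both probes were thus lower in the knockdown. The brighter probe shares a run of 35 bases with a probe filed under Gm9706, which had a difference of -2.78 (levels -4.29 in the knockdown and -1.51 in the control), so that these 2 transcripts may not be fully told apart. No other member probe shared a run of more than 14 bases with any other probe on the array, which does not test transcripts beyond the probes.

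Usp18 encodes the protease that removes ISG15 from proteins and also dampens signalling from the type I interferon receptor. It had an intensity of 716 ± 71.7 in the knockdown and 3857 ± 386 in the control (chr6:121220874-121220933), a log2 difference of -2.53 (95% interval -2.93 to -2.13) and a 5.77-fold lower signal. The tag and its protease were therefore both well above background on both arrays and both lower in the knockdown. The enzymes that attach ISG15 differed less. In the list of ISG15 conjugation genes, 2 of 7 were at least 2-fold lower, Isg15 and Usp18 themselves, beside 8.35% of all measured genes. The other 5 stayed within 2-fold. Among these, Uba7, the activating enzyme, had a difference of -0.08, Ube2l6, the conjugating enzyme, of -0.90, Ube2e2 of -0.25, and Trim25, a ligase that also acts on RIG-I, of 0.12. Herc6, the main ISG15 ligase of the mouse, had a difference of 0.78, with its probes at 0.78 to 1.05.

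The IFIT proteins bind viral RNA, IFIT1 by its cap structure, and block its translation. All 3 probes were dim on these arrays. Ifit1 had an intensity of 19.6 ± 5.44 in the knockdown, where it was not well above background, and 72.7 ± 8.74 in the control (chr19:34723796-34723855). Its bound was 3.86-fold lower, and the 95% interval of the scanner error on its measured log2 difference was -2.84 to -1.13. Ifit2, which can also promote cell death, had 63.4 ± 7.90 in the knockdown and 165 ± 17.1 in the control (chr19:34650244-34650303), a log2 difference of -1.48 (95% interval -1.94 to -1.02). Ifit3, a partner that stabilises IFIT1 on RNA in human cells, had 30.9 ± 5.16 in the knockdown and 75.1 ± 8.44 in the control (chr19:34663105-34663164), a difference of -1.38 (-1.95 to -0.81). All 3 genes were thus lower in the knockdown, with only a bound for Ifit1. With normexp they were 1.64-fold (Ifit1), 1.94-fold (Ifit2) and 1.59-fold (Ifit3) lower, each short of 2-fold. Among their relatives, Ifit1bl2 had a difference of -0.39, while Ifit3b and Ifit1bl1 were above background on neither array.

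Rsad2 encodes viperin, an enzyme that turns CTP into a chain terminator of viral RNA synthesis. It had an intensity of 17.8 ± 4.37 in the knockdown, where it was not well above background, and 128 ± 13.4 in the control (chr12:27127859-27127918, minus strand). The bound was a signal at least 6.82-fold lower. With normexp the value was 2.71-fold, which is not a bound. Cmpk2, a nucleotide kinase gene whose probe lies 36.3 kb from that of Rsad2, had a bound of 16.3-fold lower. Its levels were -6.30 in the knockdown and -1.93 in the control. Both neighbours were thus above background in the control only.

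Rtp4, which encodes an interferon-induced chaperone that carries receptors to the cell surface, had the largest difference of the 8 members above background on both arrays. Its intensity was 128 ± 14.0 in the knockdown and 10599 ± 1060 in the control (chr16:23613668-23613727), and the knockdown signal was 1.13% of the control signal. The log2 difference was -6.47 (95% interval -6.89 to -6.05). With normexp Rtp4 was 53-fold lower in place of 88.9-fold. Rtp1, Rtp2 and Rtp3, the other genes of its name, were above background on neither array.

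Ifi44 is an interferon-induced gene with a close relative, Ifi44l, beside it on the chromosome. Ifi44 had an intensity of 467 ± 46.9 in the knockdown and 5258 ± 526 in the control (chr3:151394035-151394094, minus strand), a log2 difference of -3.59 (95% interval -3.99 to -3.19) and a 12.1-fold lower signal. Ifi44l, whose probe lies 28.4 kb away, had a level of -7.70 in the knockdown, where it was not well above background, and -0.05 in the control. Its bound was 59.9-fold lower. The normexp value was 14.5-fold, which is not a bound. The pair thus ran the same way on these arrays.

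Bst2 and Ifitm3 encode membrane proteins, and both kept a strong signal on the knockdown array. Bst2 encodes tetherin, which holds budding virus particles on the cell surface. Its intensity was 9510 ± 951 in the knockdown and 21218 ± 2122 in the control (chr8:74058603-74058662, minus strand), a log2 difference of -1.26 (95% interval -1.66 to -0.86) and a 2.39-fold lower signal. Ifitm3 encodes a protein of endosomes and lysosomes that hinders the fusion of virus and host membranes. Its 10 spots read 31364 at the lowest, 38729 at the median and 40928 at the highest in the knockdown, and 52154, 59408 and 61689 in the control (chr7:148195591-148195650, minus strand). The spot with the lowest reading was the same on both arrays. The mean log2 difference was -0.71 ± 0.05 (SD over 10 spots, range -0.83 to -0.65), a 1.64-fold lower signal. These spots are repeats on 1 array per group and give the error of printing and scanning only. Ifitm3 was the 1 member that stayed within 2-fold.

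**Figure D2:**
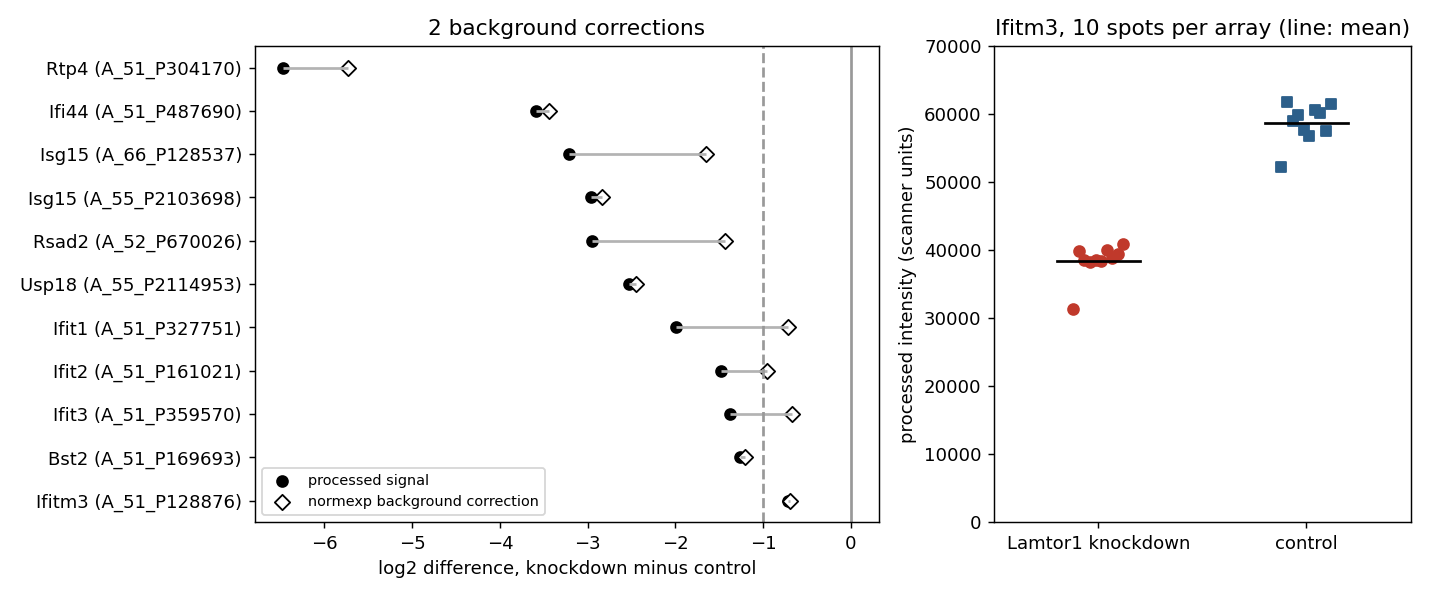
Left, log2 difference of each of the 11 probes from the processed signal (filled circles) and after normexp background correction (open diamonds), with the dashed line at 2-fold lower; the Ifit1, Ifit2 and Ifit3 probes pass to the right of it with normexp. Right, processed intensity of the 10 Ifitm3 spots on the Lamtor1 knockdown array and on the control array, with lines at the means of 38404 and 58683.

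The other Ifitm genes did not all run with Ifitm3. Ifitm1 was 2.68-fold lower (levels -4.61 in the knockdown and -3.19 in the control), and 1.78-fold lower with normexp. Ifitm2 had a difference of -0.31 and Ifitm6 of 0.28, both within 2-fold at high signals. Ifitm7 was higher in the knockdown by 1.01, with levels of 5.12 in the knockdown and 4.11 in the control, though by less than 2-fold when the arrays were scaled over probes above background on both. Ifitm5, at a level near background, had a difference of -0.16, and Ifitm10 was above background on neither array. Of the 9 measured genes in the list of relatives, 2 were at least 2-fold lower (Ifi44l and Ifitm1), beside 8.35% of all genes. Another 2 were at least 2-fold higher (Ifitm7 and Tmem140, the second by 2.35), beside 8.99%. Tmem140 was placed in this list although it shares no name with a member. Bst1 had a difference of 0.41 with its probes at -0.35 to 0.41.

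In order of difference from the lowest, the 8 members above background on both arrays ran Rtp4, Ifi44, Isg15, Usp18, Ifit2, Ifit3, Bst2 and Ifitm3. Rsad2 and Ifit1 have only a bound and were not ranked. The gaps between Rtp4 and Ifi44 (2.88), Ifi44 and Isg15 (0.63) and Usp18 and Ifit2 (1.05) exceeded the 95% range of the scanner's error for a gap (0.58, 0.57 and 0.61). The gaps between the other neighbours did not exceed it. With normexp the order of the first 4 was the same, while Bst2 came before Ifit2 and Ifit3, and Ifitm3 before Ifit3.

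**Figure D3:**
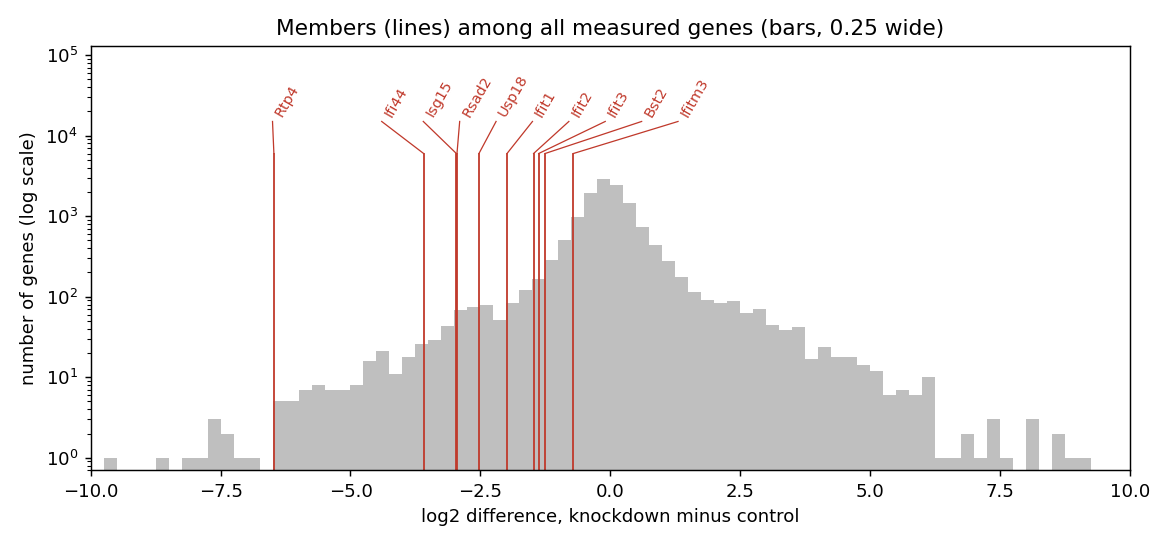
Number of measured genes (log scale) in bins of 0.25 of the log2 difference, knockdown minus control, with red lines at the 10 members. All 10 lie left of 0, and Rtp4 lies farthest left of them, at -6.47; Ifit1 and Rsad2 are drawn at their measured differences, which are not bounds.

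Genes that surround the response in the cell were read from lists of the pathway. These lists, too, were chosen with earlier results of these data known. No interferon ligand gene stood out: Ifnb1, Ifna2, Ifna4, Ifng, Ifnk and Ifne were above background on neither array, Ifna5 had a difference of -0.04 and Ifna1 of 0.66. The receptor genes stayed largely within 2-fold, with Ifnar1 at -0.17, Ifnar2 at -0.40, Ifngr1 at -0.76 and Ifngr2 at 0.34. Il10rb, a subunit shared by the receptors of interferon lambda and interleukin 10, was 1.04 higher, though less than 2-fold higher when the arrays were scaled over probes above background on both. Ifnlr1, the other subunit for interferon lambda, was above background in the knockdown only, at a difference of 2.59 with a bound of 0.39. Of the 8 measured genes of this list, these 2 were higher by 2-fold or more (1 counted by bound) and 0 were lower by as much, with 8.99% and 8.35% of all genes as background.

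Of 18 genes of interferon signalling, 3 were at least 2-fold lower and none was at least 2-fold higher, beside 8.35% and 8.99% of all genes. Irf7, the factor that amplifies interferon production, had levels of -4.28 in the knockdown and 0.29 in the control, a difference of -4.57 (-3.51 with normexp). Irf9, which directs STAT2 to the ISRE, had 0.42 in the knockdown and 1.97 in the control, a difference of -1.55. Socs3, a feedback inhibitor of cytokine signalling, had a difference of -1.91. Stat2 and the kinase genes of the receptor were within 2-fold, with Stat2 at -0.38, Jak1 at 0.41 and Tyk2 at -0.15. Ptpn6, a phosphatase gene, had a difference of -0.95 and Irf2 of -0.86. The list's median was -0.32, beside -0.05 over all genes.

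Among 15 sensors and adaptors upstream of interferon, 3 were at least 2-fold lower, beside 8.35% of all genes, and these were the RIG-I-like receptors of viral RNA in the cytosol. Dhx58 (LGP2) had a difference of -2.96, Ifih1 (MDA5) of -1.92 and Ddx58 (RIG-I) of -1.54, with a second Ddx58 probe at -1.91. The other 12 lay within 2-fold, including the adaptor Mavs at -0.17, Sting1 at -0.39, Cgas at -0.23, the kinase gene Tbk1 at 0.34 and Tlr4 at 0.35. The list's median was 0.02.

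Of 36 measured genes among 40 other interferon-stimulated effectors, 31 had a difference below 0, 21 were at least 2-fold lower and 1 was at least 2-fold higher. The matching shares of all measured genes were 54.3%, 8.35% and 8.99%. Counted by bound, 20 of the 36 were at least 2-fold lower, beside 6.87% of all genes. In the control all 36 were well above background, while in the knockdown 32 were. A gene that counts as measured through the control alone is likely to read lower for that reason, so the direction of such genes carries little information. The list's median was -1.16, beside -2.26 for the 10 members and -0.05 for all genes. Mx2, a dynamin-like GTPase gene, had a bound of 22.1-fold lower (levels -7.49 in the knockdown and -1.49 in the control), and Oasl2 of 17.6-fold lower. Cxcl10, a chemokine that draws T cells, had a difference of -4.05, with levels of -4.95 in the knockdown and -0.90 in the control, and of -2.83 with normexp. Ifi27l2a had a difference of -3.85 at a high signal, with levels of 3.28 in the knockdown and 7.13 in the control. With normexp, Mx2 was 8.20-fold, Cmpk2 4.88-fold and Oasl2 4.99-fold lower, and these are not bounds. Genes of the same list that stayed within 2-fold included Ccl5 at 0.09, Eif2ak2 at -0.15, Ifi204 at -0.29 and Irgm1 at 0.39. Tor3a was higher, by 1.16. The list thus held genes far below 0 beside genes near it.

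**Figure D4:**
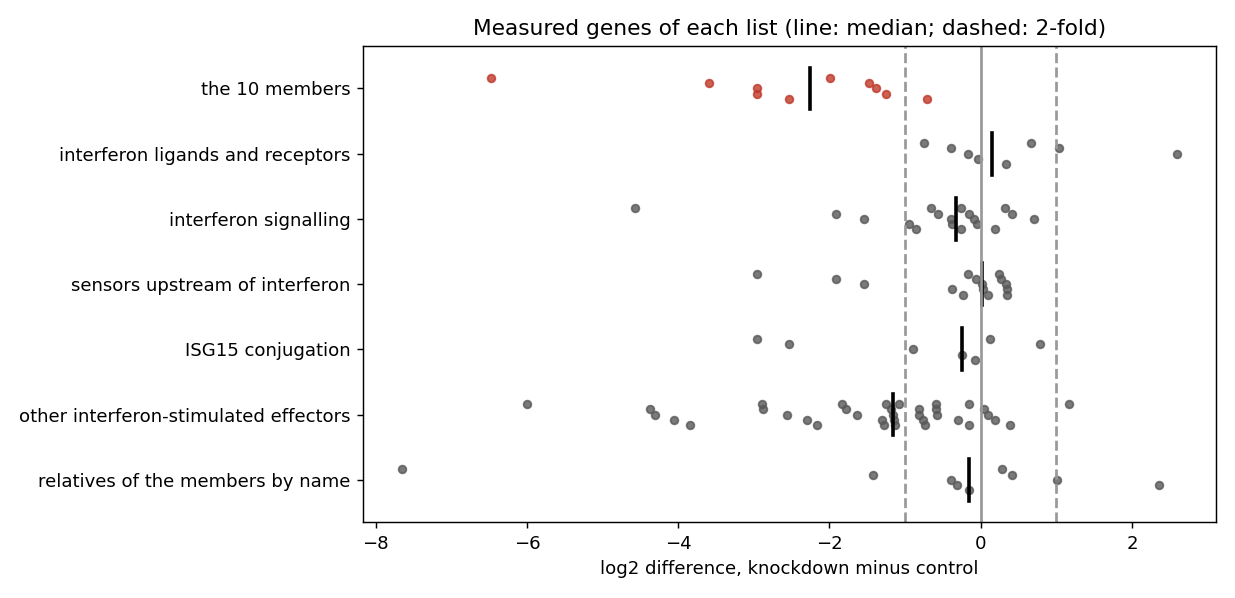
Log2 difference, knockdown minus control, of each measured gene (points) in the 10 members and in 6 lists of the pathway, with the median of each as a vertical line and dashed lines at 2-fold. The medians of the members (-2.26) and of the other effectors (-1.16) lie below -1, and those of the other lists lie between -0.32 and 0.15. Isg15 and Usp18 appear both among the members and under ISG15 conjugation.

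Genes that lie near the members but are not members were read as well, within 200 kb of the probe on mm9. There were 59 such measured genes, with a median of -0.05. Of these, 47 lay within 2-fold, 9 were lower by 2-fold or more (8 counted by bound) and 3 were higher by as much, beside 8.35% and 8.99% of all genes. The 9 include Cmpk2, Ifi44l and Ifitm1, described above. Near Ifit1, Ifit2 and Ifit3, which lie within 73.6 kb of each other, Slc16a12, a creatine transporter gene, was 4.88-fold lower, Lipa, the lysosomal acid lipase gene, was 1.86-fold higher, and Pank1 had a difference of -0.35. Near Isg15, Agrn, which encodes the matrix protein agrin, was 15.5-fold lower. Tnfrsf18 and AW011738 were above background in the control only, at bounds of 4.48-fold lower and of -0.83 on the log2 scale. Klhl17 and Plekhn1 had differences of -0.44 and 0.13. Near Bst2, Tmem221 was 2.14-fold and Niban3 2.36-fold lower, B3gnt3 was 3.05-fold higher, and 20 of 23 genes stayed within 2-fold. Near Ifitm3, Rnh1 was 2.51-fold higher, and Urah was above background in the knockdown only, at a bound of 2.02-fold higher. The 3 measured genes near Usp18, Pex26, Slc6a13 and Slc6a12, had differences of 0.07, -0.03 and 0.45, and no other measured gene lay near Rtp4.

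**Figure D5:**
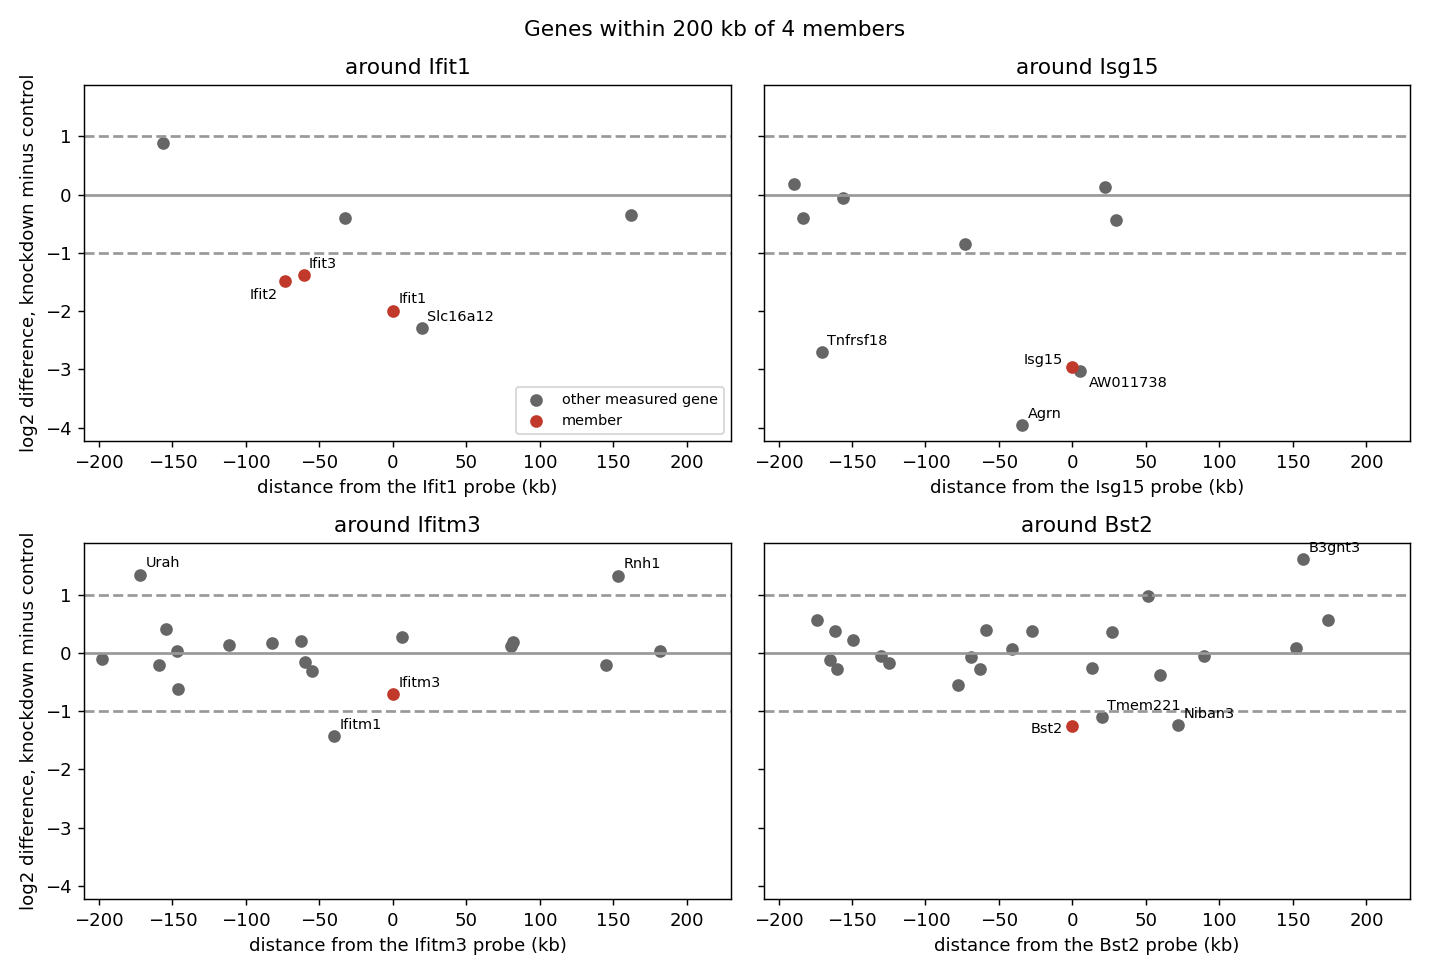
Log2 difference, knockdown minus control, of measured genes against the distance in kb from the probe of Ifit1, Isg15, Ifitm3 or Bst2, with members in red and dashed lines at 2-fold. Around Bst2, 20 of 23 other genes lie between the dashed lines, and around Isg15, 6 of 9 do.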

How the data were processed

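RNA of 1 Lamtor1 knockdown and 1 control sample was labelled with Cy3 and hybridised to 1 array each, per the labels' protocols. The authors deposited the scanner's output, in which a spot's value is a linear intensity. Agilent Feature Extraction 10.7.3.1 is named in the submitters' processing notes. Per the file headers, spatial and multiplicative trends were removed, the local background was not subtracted, surrogate values stand in for signals that did not exceed background, and both arrays come from 1 scan of the same slide. The deposited value table holds the same intensity rounded (ratios 0.995 to 1.005, medians 27.8 for the knockdown and 28 for the control), on a linear, uncentred scale.

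Spots flagged as outliers on either array (297) were left out. Each intensity was divided by the 75th percentile of its array, control spots left out (1255 for the knockdown, 1172 for the control), log2 was taken, and repeated spots were averaged. Members were matched by the gene name in the files. Other probes were named through RefSeq genes of GRCm38.p6, 26164 by accession, 3123 by symbol and 910 by an older symbol, and 9232 stayed unnamed. Of several probes of a gene, the one with the highest mean level was used, and the gene counted as measured if either array had that probe well above background. Where 1 array was not well above background, the fold is a bound against the higher of that array's lowest signal well above background and the probe's own signal. No test was possible with 1 array per group, and the number of arrays limits the precision. Normexp, quantile and cyclic loess alternatives used limma 3.58.1 in R 4.3.3. The calculation was tested on simulated data. The genes named are all members, up to 5 genes of each list with the largest differences, and measured genes within 200 kb, of which most within 2-fold are given as counts. Further list genes and Gm9706 were picked after their values were seen. The members and lists were chosen with earlier results of these data known. No transcript annotation of mm9 was used, so exon or untranslated positions of probes are not given.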

Additional observations from a re-analysis of the deposited data

How the results depend on the processing

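All 11 member probes kept a difference below 0 under the 7 alternatives that change the values of spots (normexp, median scaling, scaling over probes above background on both arrays, quantile, cyclic loess, outlier spots kept, deposited table). The median over all genes, -0.05 above, was 0.04 with median scaling and 0.03 with cyclic loess. List genes and genes near the members were not recomputed one by one, except list genes with normexp. The count of members at least 2-fold lower was 9 under every alternative except normexp, where it was 6. With normexp the members' median was -1.32, and 613 of all genes were at least 2-fold lower and 788 at least 2-fold higher, against 1150 and 1238 in the analysis above. Without a filter on dim probes 1759 genes were at least 2-fold lower. The count of ligand and receptor genes at least 2-fold higher was 1 in place of 2 with normexp, with scaling over probes above background on both arrays, and when counted by bound. In the list of relatives, 1 in place of 2 was at least 2-fold lower with normexp. With scaling over probes above background on both arrays, 1 in place of 2 was at least 2-fold higher. Of 160 values over members, lists and all genes, 151 stayed within 1.5 times or within the scanner's error. The count of 6 members with normexp is among these 151, at the limit of 1.5 times. Signal over background limits the values of Ifit1, Rsad2 and the second Isg15 probe, which were not well above background in the knockdown. No paired analysis was possible because each group holds 1 array, and leaving out a replicate was not possible for the same reason.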
